A study of Camelus bactrianus with 10 samples.

Results

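MicroRNAs tied to cholesterol handling, fat metabolism and insulin action were followed in exosomes, the small vesicles that cells release, from the blood plasma of Bactrian camels (Camelus bactrianus). The set comprised miR-103, miR-103a, miR-107, miR-33a, miR-33b, miR-378, miR-378a, miR-185, miR-148a and miR-193b, chosen by name, and every entry of either arm with any end change was kept. All 10 names were found, in 21 of the 2581 entries of the deposited table. Small RNA was sequenced from 5 camels labelled thin, with weights of 402.6 to 421.2 kg, and 5 labelled normal, with weights of 452.3 to 492.8 kg, each camel giving 1 library. The labels name no treatment, and exosomes of both groups were pelleted by high-speed centrifugation. The sources used here do not give the age or sex of the camels or the reason for the low weight.

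MicroRNAs are short RNAs that pair with messenger RNAs through their seed, bases 2 to 8, and reduce the output of those messengers. In human, miR-33a and miR-33b are carried within introns of the SREBF genes, which encode regulators of cholesterol and fatty acid synthesis. Both repress the cholesterol exporter ABCA1. MiR-148a represses the LDL receptor in human and mouse liver cells, and miR-185 represses the HDL receptor SCARB1 in human liver cells. MiR-103 and miR-107 lie within introns of the pantothenate kinase genes of coenzyme A synthesis and reduce insulin sensitivity in mice, miR-378a lies within the mitochondrial regulator gene PPARGC1B, and miR-193b takes part in brown fat cell formation in mice.

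The most abundant entry of each of the main members is given in the letters of the table, which are DNA letters, from 5′ to 3′, with the seed in capitals, since the seed sets which members can be grouped by shared pairing.
miR-185-5p: tGGAGAGAaaggcagttcctga
miR-378a-3p: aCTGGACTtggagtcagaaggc
miR-148a-3p: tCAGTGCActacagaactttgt
miR-103a-3p: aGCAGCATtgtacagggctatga
miR-107: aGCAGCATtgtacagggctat
miR-193b-3p: aACTGGCCcacaaagtcccgct
miR-33a-5p: gTGCATTGtagttgcattgc
miR-33b-5p: gTGCATTGctgttgcattgc

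MiR-103a and miR-107 share a seed that no entry outside the set carried, and so do miR-33a-5p and miR-33b-5p, whose entries differ by T9C and A10T (miR-33a-5p base first, counted from the 5′ end). The seed of miR-185-5p was found in no other of the 2581 entries. The seed of miR-148a-3p was shared with 3 entries outside the set, of miR-148b and miR-152, and miR-148a-3p made up 60.3% to 80.4% of all normalized counts with that seed. The entry of miR-193b-3p carried the substitution T10A, outside the seed, relative to the named human miRNA.

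The entry named miR-107 could not be told apart from a shortened miR-103a-3p. The table's name, hsa-miR-107_R-2, says that 2 bases were missing at the right end, and its 21 bases were the same as the first 21 bases of miR-103a-3p. The aligned entries are shown with the bases beyond that shared stretch in capitals.
hsa-miR-107_R-2: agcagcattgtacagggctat
hsa-miR-103a-3p: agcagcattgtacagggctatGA
oan-miR-103-3p_R+1: agcagcattgtacagggctatGAG
oan-miR-103-3p_R+2: agcagcattgtacagggctatGAGT
The base that separates miR-107 from miR-103a lies in the missing end, so values printed for miR-107 belong to that name in the table and may hold reads of either miRNA.

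Values are the authors' normalized counts. Libraries summed to between 532999 and 757352 normalized counts, and reads estimated from the smallest steps between values ranged from 505263 in thin 2 to 4474902 in normal 5. An entry listed at 0 may still have had up to about 5 reads, a floor that is worth 0.825 normalized counts in normal 4, where it is lowest, and 5.27 in thin 2, where it is highest. Plasma markers, in lists chosen with earlier results of these data known, were present in every library. Red blood cell miRNAs made up 11% to 33.9% of a library and platelet miRNAs 4.78% to 10.2%. Leukocyte miRNAs made up 1.48% to 5.85% and liver miRNAs 1.36% to 13.3%. Normal 4 and normal 5 stood apart from the other libraries in earlier results of these data, and the log2 fold changes of the tested entries are also given without them. They were also the deepest, at 4312774 and 4474902 estimated reads, and thin 4 came next at 2938273.

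The set made up 1.53% to 2.28% of a library, with a mean of 1.90 ± 0.321% over the 5 normal libraries and 1.98 ± 0.111% over the 5 thin ones (SD). MiR-148a-3p, miR-103a-3p and miR-185-5p together held 90.4% to 94.8% of the set's normalized counts in each library. They ranked 31, 37 and 45 by mean level among the 2581 entries. MiR-107 and miR-378a-3p followed at ranks 127 and 129. The entries of miR-33a, miR-33b and miR-193b, and the partner arms of all hairpins, were low.

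Of the 21 entries, 7 passed the filter of 10 or more normalized counts in at least 5 libraries, under 6 of the 10 names. With limma on log2(value + 1) over all 468 entries that passed this filter, none of the 7 passed a Benjamini-Hochberg adjusted p of 0.05, against 1.92% of all entries tested. Before adjustment, 2 of 7 had p under 0.05, against 11.8% of all, namely miR-185-5p with a lower and miR-378a-3p with a higher mean in thin camels. In these same 2 entries the values of the 5 thin and 5 normal libraries did not overlap, against 3.63% of all entries tested. The median log2 fold change was -0.03 for the 7 entries and -0.01 for all 468, and 3 of the 7 lay above 0 and 4 below.

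**Figure D1:**
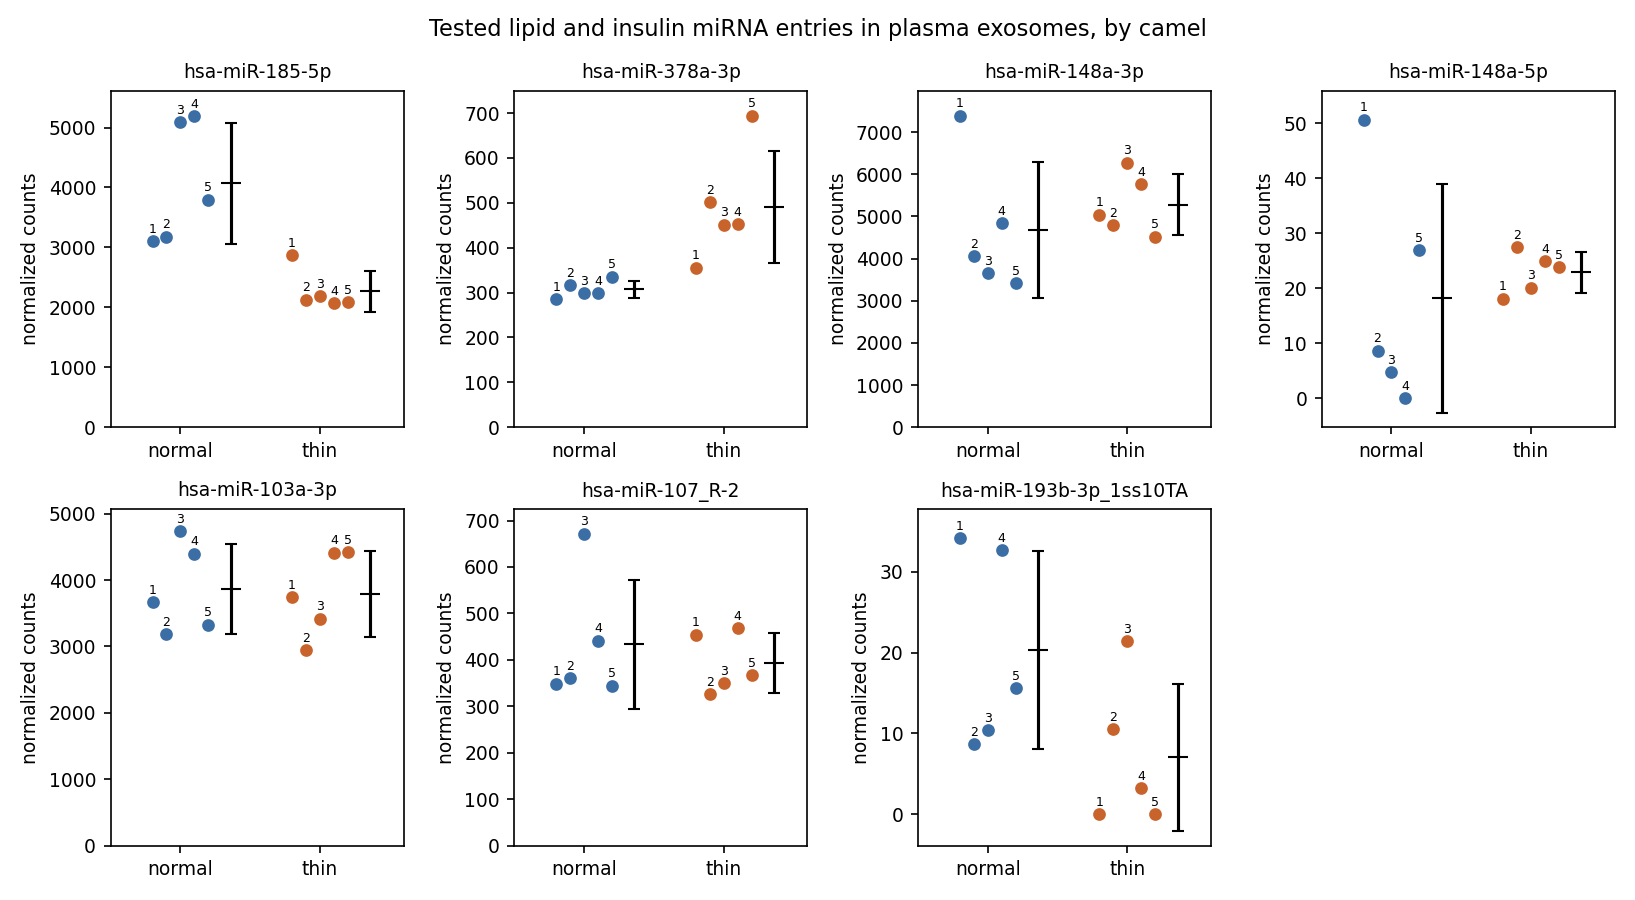
Normalized counts (y axis, linear) of the 7 tested entries in each library, with the replicate number above each point, normal camels in blue and thin camels in orange. Black bars give the mean ± SD of 5 libraries. The groups are separate for miR-185-5p, where thin 1 at 2865 lies nearest to the normal libraries, and for miR-378a-3p, where thin 1 at 355.3 does, and overlap in the other 5 panels.

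**Figure D2:**
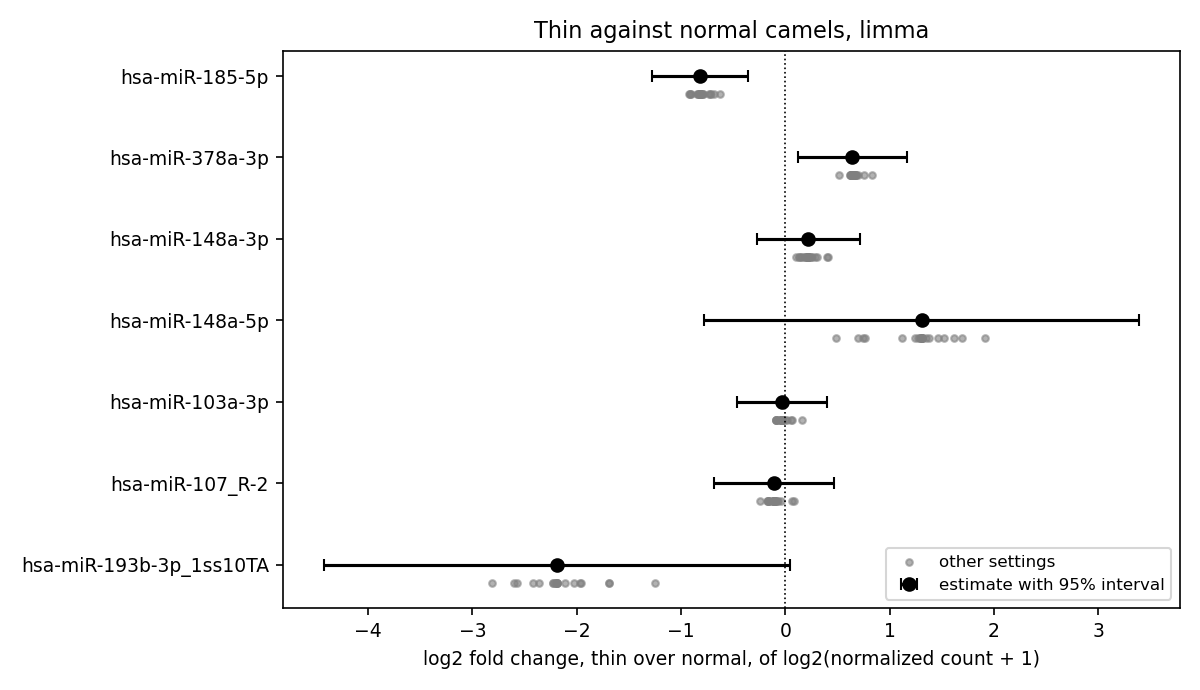
Log2 fold change of thin over normal camels for the 7 tested entries (x axis), with black points and bars for the estimate and its 95% interval. Grey points give the other settings, both other processing and fits with libraries left out. The bars of miR-185-5p and miR-378a-3p do not reach 0, and those of the low entries miR-193b-3p and miR-148a-5p are the widest.

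MiR-185-5p, the repressor of the HDL receptor in human liver cells, was lower in every thin camel than in any normal camel. It was 3100, 3179, 5086, 5187 and 3797 normalized counts in normal 1 to 5. In thin 1 to 5 it was 2865, 2125, 2185, 2074 and 2083. Thin 2 to 5 were nearly level, thin 1 was higher, and normal 3 and normal 4 were the highest. The mean was 4070 ± 1011 over normal and 2267 ± 337.6 over thin libraries (SD, n = 5 per group), and the log2 fold change was -0.82 ± 0.21 (SE; 95% interval -1.28 to -0.36; limma adjusted p = 0.0840, rank 12 of 468 by p). In plasma, fewer vesicles from a cell type and less of a miRNA per vesicle cannot be told apart. The entry passed the threshold without thin 1 (log2 fold change -0.91, adjusted p = 0.0484), and over all 23 alternatives its log2 fold change stayed between -0.92 and -0.63 with adjusted p from 0.0218 to 0.479. Without normal 4 and normal 5 it was -0.71 (adjusted p = 0.334), and even thin 2, the shallowest library, held an estimated 2014 reads of it.

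The miRNAs of red blood cells were also lower in thin camels. Of the 11 tested entries of the red blood cell list, all had a log2 fold change below 0. Their median was -1.09, and 1 of them, miR-486, passed the threshold. That list was chosen with earlier results of these data known. Over all 468 tested entries, 237 lay below 0, the median was -0.01 and 9 passed. The list made up 18.3% to 33.9% of normal and 11% to 18.5% of thin libraries, so these ranges overlapped, at normal 1 and thin 1. Among 359 named tested entries outside the set, the levels most like those of miR-185-5p over the 10 libraries were those of miR-486 (Pearson r = 0.93, Spearman rho = 0.90), miR-106b-3p (0.92 and 0.89) and miR-25-3p (0.89 and 0.89), all with lower means in thin camels. These coefficients describe 10 libraries that share the group difference and the scaling, and the part of red blood cell miRNAs in the miR-185-5p values was not tested.

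**Figure D3:**
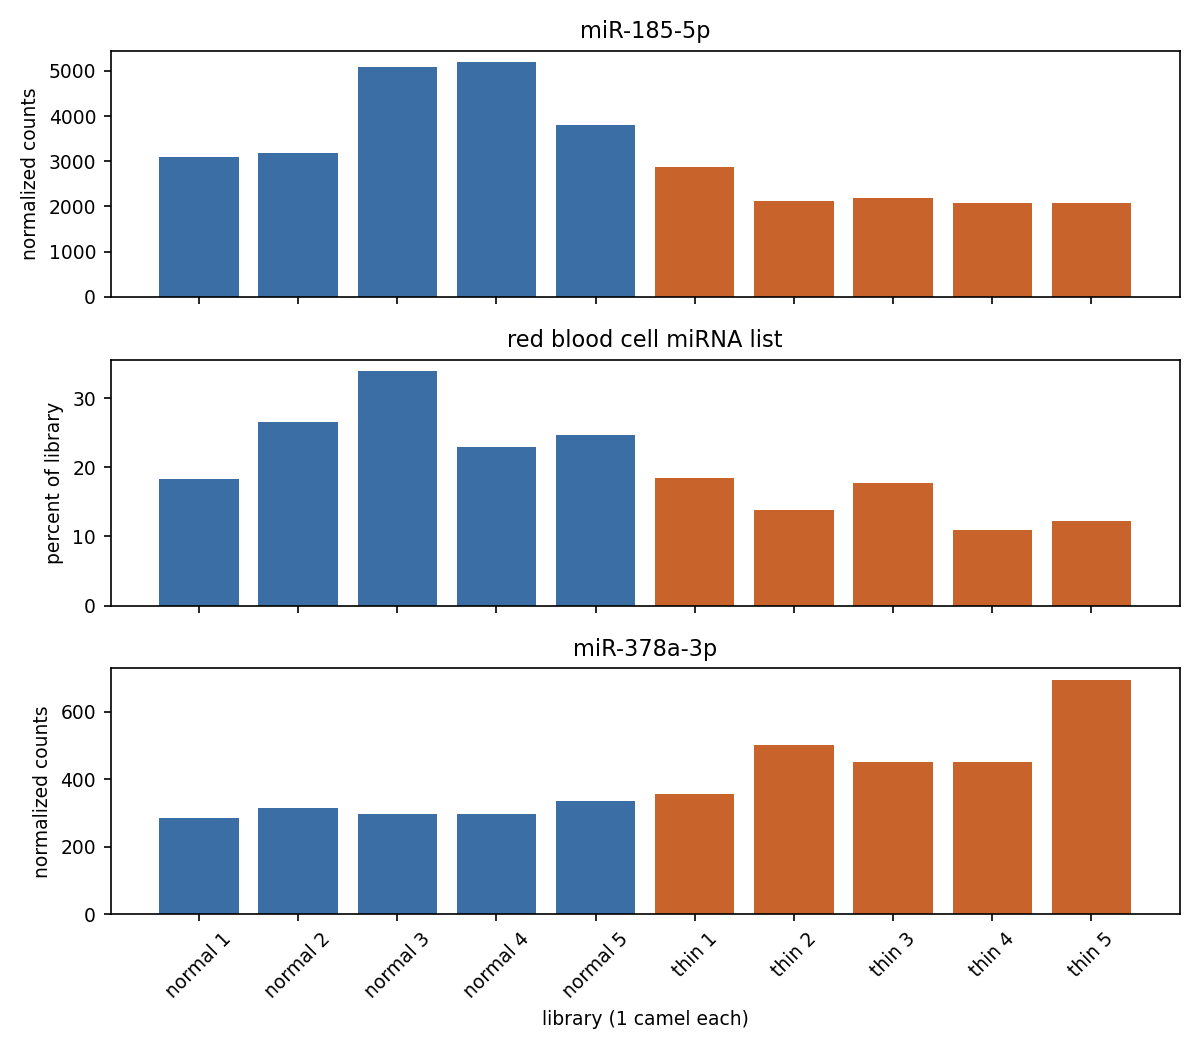
Bars from 0 give, for each library, the normalized counts of miR-185-5p (top), the percent of the library taken by the red blood cell miRNA list (middle) and the normalized counts of miR-378a-3p (bottom), normal camels in blue and thin camels in orange. MiR-185-5p is lower, and miR-378a-3p higher, in every thin library than in any normal library. The red blood cell list overlaps at thin 1 (18.5%) and normal 1 (18.3%), and the other thin libraries lie below every normal one.

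The partner strand, miR-185-3p, had a mean of 8.68 ± 5.92 over normal and 11.2 ± 3.51 over thin libraries (SD, n = 5 per group) and did not pass the filter. An entry of miR-185-5p with 1 more base at the left end was listed at 6.63 in normal 3 and 3.98 in normal 5 and at 0 in the other 8 libraries. That added base shifts the seed.

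MiR-378a-3p, whose host gene in human and mouse acts in mitochondrial biogenesis, was higher in every thin camel than in any normal camel. In normal 1 to 5 the values were 286.0, 316.5, 298.2, 298.5 and 335.6 normalized counts. In thin 1 to 5 they were 355.3, 502.1, 451.4, 452.8 and 694.2. The normal libraries lay close together and the thin ones were spread, with thin 5 the highest and thin 1 only just above normal 5. The means were 307.0 ± 19.4 and 491.2 ± 125.4 (SD, n = 5 per group), and the log2 fold change was 0.64 ± 0.24 (SE; 95% interval 0.12 to 1.17; limma adjusted p = 0.275). Its SD was 6.31% of the mean in normal and 25.5% in thin camels, while the median over the 209 tested entries with a mean of 100 or more was 34.8% in both groups, and 3 of those 209 had a smaller value in normal camels. The log2 fold change was 0.51 without thin 5 and 0.67 without normal 4 and normal 5, and no alternative brought its adjusted p below 0.11.

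Forms of miR-378a-3p with changed ends were listed under the name miR-378. They are shown with the added or changed bases at the right end in capitals, because they tell which end varied.
hsa-miR-378a-3p: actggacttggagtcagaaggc
bta-miR-378_R+1: actggacttggagtcagaaggcT
bta-miR-378_L-1R+1: ctggacttggagtcagaaggcT
bta-miR-378_R+1_1ss22CA: actggacttggagtcagaaggAT
The first of these forms, bta-miR-378_R+1, was also listed under a name of miR-378c with the same sequence and the same values, so its origin within the miR-378 family is uncertain.

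The form with 1 added T, bta-miR-378_R+1, was 5.69, 5.19, 4.26, 8.09 and 8.62 normalized counts in normal 1 to 5 and 9.05, 19.0, 19.4, 10.4 and 21.4 in thin 1 to 5. Its groups did not overlap, with thin 1 just above normal 5. It is a form of the same arm, and it did not pass the filter and so was not tested in that fit. How often entries below the filter separate in this way was not counted. The form that had also lost the first base, bta-miR-378_L-1R+1, was listed at 0 in normal 1, 2, 3 and 5 and thin 1, at 1.32 in normal 4, and at 19.0, 5.35, 2.53 and 15.9 in thin 2 to 5. The form with the substitution C22A had means of 2.99 over normal and 3.70 over thin libraries and was at 0 in 5 libraries. Forms other than the leading one made up 3 ± 1.32% of all miR-378a-3p over normal and 5.43 ± 1.33% over thin libraries (SD, n = 5 per group; two-sided exact permutation p = 0.0238, adjusted p = 0.0714 over 3 arms, where the smallest possible p is 0.00794). Without normal 4 and normal 5 the smallest adjusted p over the 3 arms in the exact permutation test was 0.161. So few splits remain there that full separation of 1 arm alone could not have passed. The difference did not pass the adjusted threshold, and the ranges overlapped, at 1.41% to 4.39% in normal and 3.53% to 7.03% in thin camels. These forms were so low that the floor of about 5 reads, which differs with depth, bears on them.

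**Figure D4:**
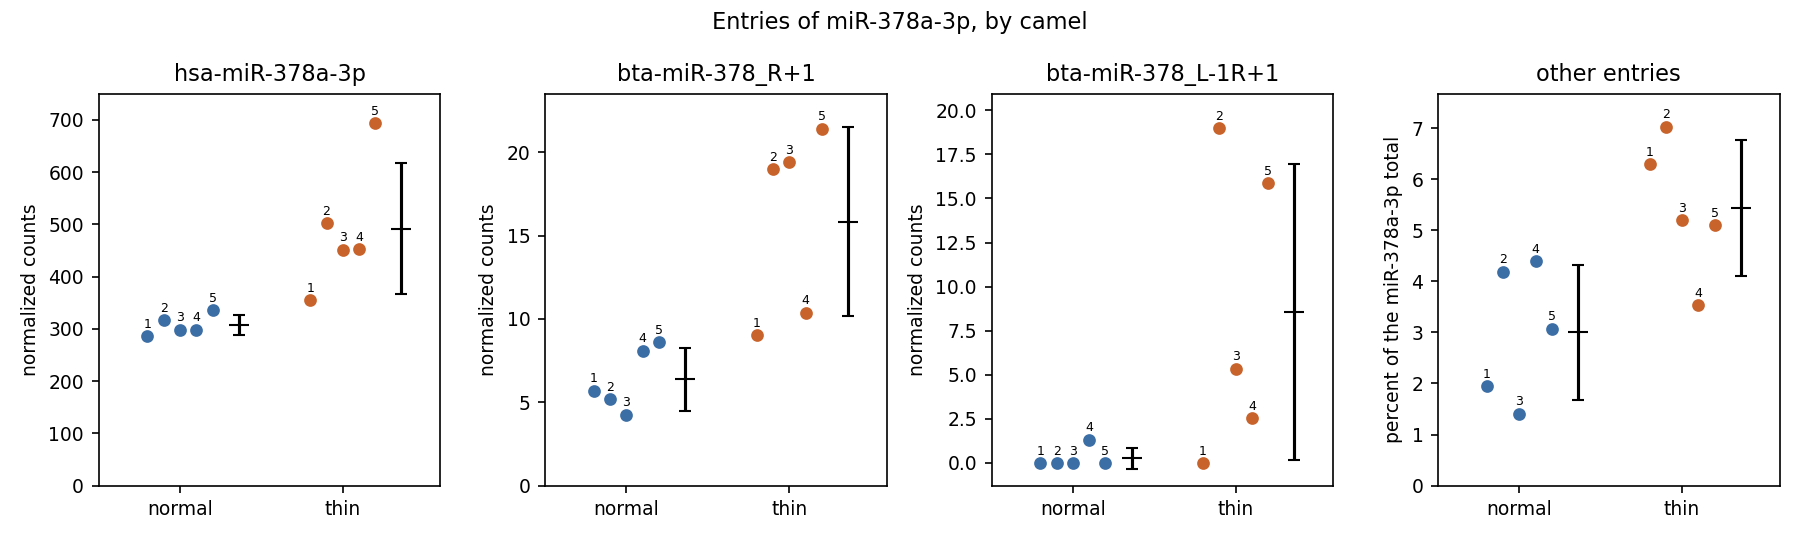
Normalized counts (y axis, linear) of the leading miR-378a-3p entry, the entry with 1 added T and the entry that also lost its first base, by library, and in the last panel the percent of all miR-378a-3p held by entries other than the leading one. Points carry the replicate number, and black bars give the mean ± SD of 5 libraries. The first 2 panels show separate groups, the second for an entry below the filter. Thin 1 is lowest among thin libraries in both, and the last panel shows overlap.

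The levels most like those of miR-378a-3p over the 10 libraries were those of miR-142-3p (cgr-miR-142-3p_L+1, Pearson r = 0.95, Spearman rho = 0.92), a miRNA of blood cells, miR-29c-3p (0.93 and 0.92) and miR-1260 (0.88 and 0.75). All had higher means in thin camels, with log2 fold changes of 1.11, 0.93 and 1.33. These coefficients too describe 10 libraries that share the group difference and the scaling. Of the 14 tested entries of the leukocyte list, which holds miR-142, 9 had a log2 fold change above 0 and 5 below. Their median was 0.10 and 0 passed the threshold. Leukocyte miRNAs as a list made up 2.22% to 3.88% of normal and 1.48% to 5.85% of thin libraries. Muscle miRNAs made up 0.0696% to 0.0866% of normal and 0.0845% to 0.174% of thin libraries. The highest of these was thin 2 alone, and the next was thin 5 at 0.094%. None of the 5 tested muscle entries passed the threshold (lowest limma adjusted p = 0.609). The part of either in the miR-378a-3p values was not tested. The partner strand, miR-378a-5p, was above 0 in 3 libraries, at 1.99 in normal 5, 3.23 in thin 4 and 9.52 in thin 5.

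MiR-148a-3p, a repressor of the LDL receptor in human and mouse liver cells, was the most abundant of the set and did not separate the groups. It was 7388, 4049, 3659, 4834 and 3418 normalized counts in normal 1 to 5, and 5040, 4783, 6277, 5758 and 4518 in thin 1 to 5. Normal 1 was the highest of all libraries, and normal 2, 3 and 5 were below every thin library. The log2 fold change was 0.22 ± 0.23 (SE; 95% interval -0.27 to 0.72; limma adjusted p = 0.757), without normal 1 it was 0.40 (adjusted p = 0.368), and without normal 4 and normal 5 it was 0.13. The seed relatives miR-148b-3p, with means of 1762 (normal) and 1815 (thin), and miR-152-3p, at 236.7 and 143.0, had log2 fold changes of 0.05 and -0.69 and did not pass the test (adjusted p = 0.963 and 0.603). The levels most like those of miR-148a-3p were those of miR-22-3p and miR-193a-5p (both r = 0.76, rho = 0.78) and miR-23a-3p (r = 0.69, rho = 0.64).

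The other strand, miR-148a-5p, was detected at 50.6, 8.65, 4.73, 0 and 26.9 normalized counts in normal 1 to 5 and at 18.1, 27.4, 20.1, 24.9 and 23.8 in thin 1 to 5. Thin libraries were close to each other, while normal libraries ran from the lowest to the highest value. Its log2 fold change of 1.31 ± 0.96 (SE; limma adjusted p = 0.681) was 0.49 without normal 4, the library at 0, 1.91 without normal 1, and 0.74 without normal 4 and normal 5. Relative to the 3p strand, the 5p strand stood at a log2 ratio of -8.87 ± 2.13 over normal and -7.79 ± 0.35 over thin libraries (SD, n = 5 per group; two-sided exact permutation p = 0.325, and 0.286 without normal 4 and normal 5). MiR-148a was the only hairpin of the set with both strands high enough for this comparison.

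MiR-103a-3p, which reduces insulin sensitivity in mice, had nearly the same level in both groups. It was 3672, 3183, 4739, 4397 and 3327 normalized counts in normal 1 to 5, and 3741, 2940, 3417, 4414 and 4424 in thin 1 to 5. The groups covered nearly the same range. Its log2 fold change was -0.03 ± 0.20 (SE; 95% interval -0.46 to 0.40; limma adjusted p = 0.975), so the interval spans changes in either direction of up to about that size, and the sign turned under 5 of 23 alternatives, equal library totals among them. Without normal 4 and normal 5 the log2 fold change was -0.03. The levels most like its own were those of miR-1839-5p (r = 0.73, rho = 0.71), miR-30e-3p (0.69 and 0.61) and let-7g-5p (0.67 and 0.41). Its forms with 1 and 2 more bases at the right end were low, at up to 20.6 and 18, and made up 0.154% to 0.556% of all miR-103a-3p (exact permutation adjusted p = 0.476 for the difference between groups).

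The entry named miR-107 was 348.8, 360.9, 671.5, 441.3 and 344.2 normalized counts in normal 1 to 5, and 454.0, 325.6, 350.0, 468.6 and 367.1 in thin 1 to 5. Normal 3 was the highest, as it was for miR-103a-3p. The log2 fold change was -0.11 ± 0.26 (SE; 95% interval -0.68 to 0.47; limma adjusted p = 0.907), and it turned to 0.08 with equal library totals and 0.06 without normal 3, and was -0.17 without normal 4 and normal 5. In every library miR-103a-3p was 7.09 to 12.1 times as high as this entry, and the log2 ratio was 3.19 ± 0.23 over normal and 3.27 ± 0.20 over thin libraries (SD, n = 5 per group; two-sided exact permutation p = 0.603). Without normal 4 and normal 5 that log2 ratio was 0.15 higher in thin camels (exact permutation p = 0.446). The levels most like those of the entry were those of miR-17-5p and an entry of miR-106a-5p (both r = 0.78, rho = 0.67) and miR-148b-3p (r = 0.77, rho = 0.82). MiR-17-5p and that miR-106a-5p entry had the same means, 1632 in normal and 1704 in thin camels, so they may be the same values under both names. The 5p strands of both hairpins, which differ by C16T, were at 0 in 8 libraries for miR-103a and in 9 for miR-107, and reached 4.73 and 3.23.

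MiR-193b-3p, of brown fat cell formation in mice, was low and had the widest interval of the set. It was 34.2, 8.65, 10.4, 32.7 and 15.6 normalized counts in normal 1 to 5 and 0, 10.5, 21.4, 3.23 and 0 in thin 1 to 5. Thin 3 and thin 2 lay within the range of the normal libraries and the other 3 thin libraries below it. The log2 fold change was -2.19 ± 1.03 (SE; 95% interval -4.42 to 0.04; limma adjusted p = 0.445), and with a pseudocount of 5 it was -1.25, so its size depends on the treatment of the values at 0. Without normal 4 and normal 5 it did not pass the filter. The levels most like its own were those of an entry of miR-223-3p (oan-miR-223-3p_R-1, r = 0.88, rho = 0.73), miR-2483-3p (0.83 and 0.88) and miR-1842 (0.83 and 0.55). MiR-193b-5p was above 0 in 4 libraries, at 7.59, 9.24 and 23.9 in normal 1, 4 and 5 and at 12.7 in thin 2.

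The miR-33 miRNAs, repressors of cholesterol export, were low in every library. MiR-33a-5p was 26.6, 0, 7.57, 21.1 and 12.3 normalized counts in normal 1 to 5 and 0, 0, 6.69, 2.30 and 17.5 in thin 1 to 5. Its groups overlapped, with normal 1 the highest and 3 libraries at 0, and it did not pass the filter. MiR-33a-3p was at 0 in 4 libraries and reached 10.1 in normal 1. MiR-33b-5p was listed in normal 2 at 10.4 and in thin 2 at 21.1 and at 0 in the other 8 libraries, and in both of these libraries miR-33a-5p was at 0. With no filter on low values, the log2 fold change of miR-33a-5p was -1.44 (SE 1; limma adjusted p = 0.476).

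**Figure D5:**
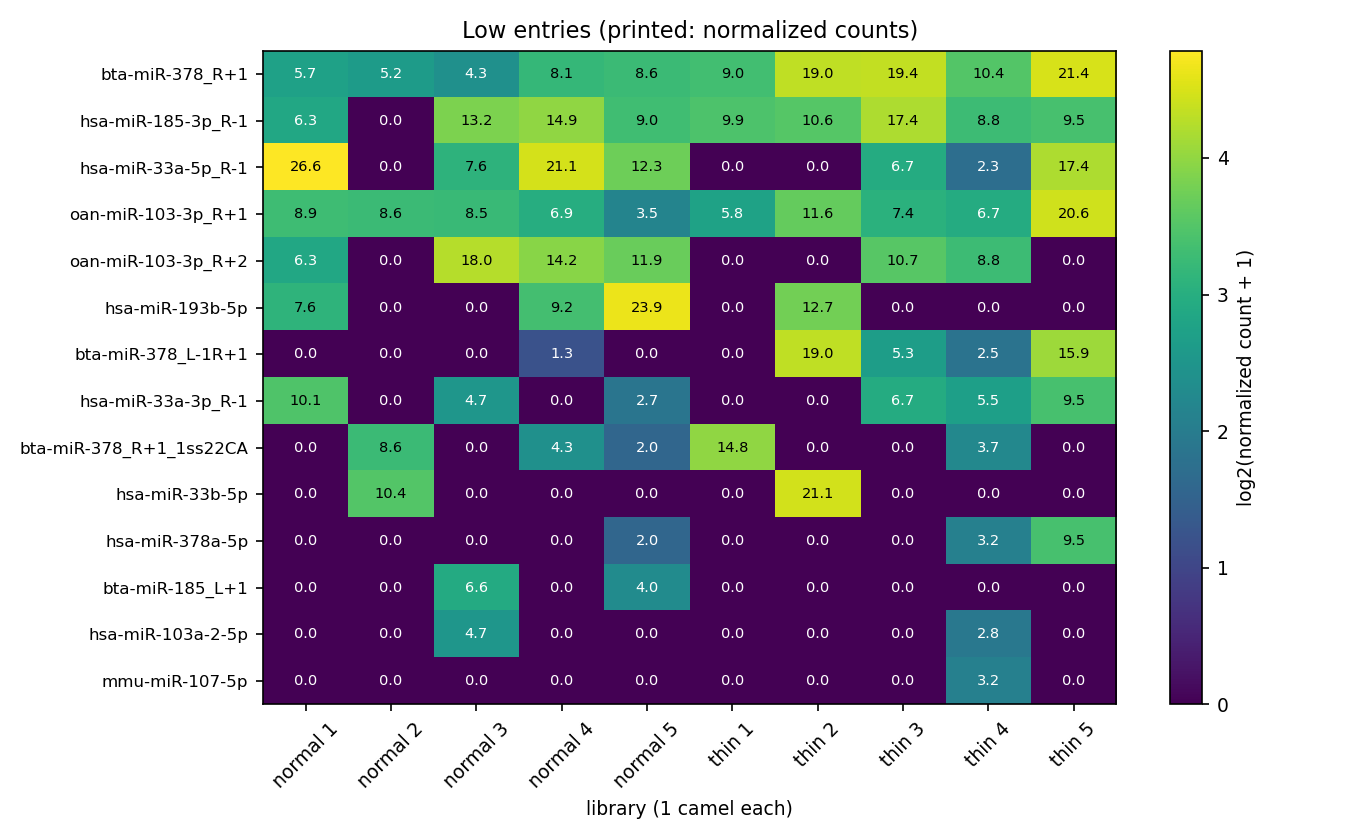
Normalized counts of the 14 entries that did not pass the filter, 1 row per entry and 1 column per library, with the value printed in each cell and the colour giving log2(normalized count + 1). None exceeds 26.6, 2 are above 0 in every library, and 8 are at 0 in at least 5 of the 10 libraries.

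Other miRNAs known to act on lipids and insulin were counted from a list of 23 names. Of its 34 tested entries none passed the adjusted threshold. At an unadjusted limma p under 0.05, 6 had a higher and 2 a lower mean, against 27 and 28 of all 468 entries tested. Both lower entries were arms of miR-144, which is also on the red blood cell list. MiR-128-3p and miR-130b-5p were each listed under names of different species with the same means. The median log2 fold change of the list was -0.06, against -0.01 for all. The most abundant tested entries were miR-122-5p, the main miRNA of liver cells, at 35530 in normal and 23040 in thin camels (log2 fold change -0.66 ± 0.59 SE, limma adjusted p = 0.721), and miR-26a-5p, at 18610 and 16980 (-0.12 ± 0.25, adjusted p = 0.870). The list took 9.45% to 19.1% of normal and 9.71% to 16.3% of thin libraries.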

How the data were processed

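Small RNA libraries from plasma exosomes of 10 camels were analysed. Per the labels' protocols, the mirVana kit served for RNA extraction, TruSeq small RNA libraries were run on a HiSeq instrument, and reads were filtered with ACGT101-miR, which removed junk reads, common RNA families and repeats. The protocol names 9 libraries and the table holds 10. The sources used here do not give the aligner, the miRBase version or the scaling. The deposited values are a signal that the authors' column headers call normalized counts, and 2 lines of the table were empty. They did not come out as whole reads throughout, so the count test first planned gave way to limma 3.58.1 (R 4.3.3) with a mean trend on log2(value + 1), group as the only term, over entries at 10 or more in at least 5 libraries. Reads were estimated from the steps of values up to 200 steps, of which 98.8% to 99.9% were whole within 0.02 of a step, and serve only to describe depth. Adjusted p-values follow Benjamini and Hochberg.

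Older names were joined for arm sums (miR-103 with miR-103a, miR-378 with miR-378a). Shares and ratios were compared in an exact permutation test, two-sided, with all 252 splits enumerated in Python 3.11.15. Arms were compared for end forms at a sum of at least 100 in every library. Every member entry past the filter was named, and for 6 of them the 3 entries of most similar level were taken from the named tested entries outside the set. The members and lists were chosen with earlier results of these data known. The code was tested on simulated data.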

Additional observations from a re-analysis of the deposited data

Results flagged for a closer look

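In 61 groups of 5 libraries checked for a library far from the others (the gap to its nearest neighbour over 0.71 of the group's range), 3 were found, and chance gives about 1 in 20. MiR-185-5p was 2865 normalized counts in thin 1, above the other 4 thin libraries, with a gap of 0.859 of the range. MiR-185-3p was 17.4 in thin 3, with a gap of 0.792 of the range. The muscle miRNA list made up 0.174% of thin 2, above the other thin libraries, with a gap of 0.894 of the range.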

How the results depend on the processing

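No member passed the adjusted threshold with the deposited values, equal totals, trimmed mean or upper quartile scaling, a pseudocount of 0.5 or 5, no filter, limma without trend, summed arms, without normal 4 and normal 5, or without the 3 deepest libraries. The number was 1, miR-185-5p, with 10 or more asked for in all libraries and with sample quality weights (limma adjusted p = 0.0494 and 0.0218), and 0 to 1 with each library left out in turn, the call coming without thin 1. The number of arms whose end forms differed ranged from 0 to 1 with each library left out. The call was miR-378a-3p without thin 4 (exact permutation adjusted p = 0.0476), and no other setting gave one. Without normal 4 and normal 5, or without the 3 deepest libraries, full separation of 1 arm alone could not have passed, as few splits remain. Without the 3 deepest, the miR-378a-3p shares did not overlap between groups (smallest exact permutation adjusted p = 0.0857). The arm ratio of miR-148a gave no call under any setting. With same-numbered libraries taken as pairs, this ratio could not have passed, as so few differences have too few sign patterns. The difference in the log2 ratio of miR-103a-3p to miR-107 was 0.08, and ranged from -0.02 without normal 3 and -0.01 without thin 5 to 0.13 with each library left out.

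Equal library totals moved the median log2 fold change of all entries from -0.01 to 0.17. MiR-185-5p and miR-378a-3p were -0.63 and 0.83 there, or -0.80 and 0.66 relative to that median. With each library left out, miR-107 ranged from -0.18 to 0.06 and miR-103a-3p from -0.09 to 0.06. MiR-107 turned to 0.08 with equal totals and 0.06 without normal 3, and miR-103a-3p to 0.16 with equal totals, 0.05 without normal 3, 0.02 without normal 4, 0.06 without thin 2 and 0.00 without thin 3. The cause was not tested. Replicate numbers name different camels, so they do not pair the camels. Same-numbered libraries deviated together in some pairs but not all (correlations of 0.18, 0.25, 0.03, 0.52 and -0.20). Whether same-numbered libraries were handled together was not tested. With the replicate block 0 members passed (adjusted p = 0.160 for miR-185-5p) and the log2 ratio of miR-103a-3p to miR-107 differed by 0.08. MiR-193b-3p has no value without normal 4 and normal 5, without the 3 deepest libraries or with 10 or more asked for in all libraries, and miR-148a-5p none in the last, as they did not pass the filter there. Entries below about 10 normalized counts rest on few reads.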

Other observations

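Among 2 shorter entries within miR-378a-3p, 1 was listed in thin camels alone and 1, ppy-miR-378d with 18 bases, in normal camels alone, at 0.991 and 0.995 normalized counts in normal 4 and normal 5. The table names the first bta-miR-378d_R-3, and its 19 bases are bases 2 to 20 of miR-378a-3p, shown here in capitals within that sequence.
miR-378a-3p: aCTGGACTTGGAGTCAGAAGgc
The 19-base entry was at 0 in all 5 normal libraries, among them normal 4 and normal 5, where 5 reads are worth 0.825 and 0.829 normalized counts. It was 6.58, 42.2, 6.02, 4.84 and 29.4 in thin 1 to 5, highest in thin 2 and thin 5. Of the 2581 entries, 1, this one, was at 0 in every normal and above 0 in every thin library, and 1 showed the opposite. It was singled out after its values were seen, it lies outside the set and below the filter, and its origin among the members of the miR-378 family is uncertain.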
